A study of Arabidopsis thaliana with 4 samples.

Results

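Transcript levels in the aerial parts of Arabidopsis seedlings were compared between 2 experimental repeats, each of which held 1 array of the wild type and 1 of the eif3h mutant. The members were chosen by the repeat number in the array titles, so that repeat 1 gave 2 arrays and repeat 2 gave 2 arrays, and together they are all 4 arrays of the series. All seedlings were 10 days old and, by the study's methods, grew on agar medium with sucrose under continuous light. The mutant is labelled eif3h. In the study's methods it is the eif3h-1 allele, a T-DNA insertion that leaves a carboxy-terminally truncated h subunit of translation initiation factor eIF3, so it is not a complete loss of the protein. The RNA of the repeats was prepared independently and on different days. The array settings showed 1 scan day and 1 scanner within each repeat, different scanners in the repeats, and 399 days between their scans. Harvest, RNA preparation, labelling, scan day and scanner therefore cannot be told apart in any difference between the repeats reported here.

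Seedlings grown to one age on one medium still differ from harvest to harvest in ways that the transcriptome reads sensitively. Genes of cold, dehydration and abscisic acid responses react to small changes in water status, clock genes to the hour of harvest, nutrient and sugar genes to the medium, and copper-responsive genes to the amount of copper available. Secreted defence proteins and anthocyanin enzymes also vary with light, handling and microbes. Plastid-encoded transcripts form a class of their own, since they are made by separate polymerases in polycistronic units and mostly lack stable poly(A) tails.

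Of 22746 probe sets, the 38.8% with the highest mean signal were tested, and 90 were called higher and 128 lower in repeat 2 (limma with genotype as a block, Benjamini-Hochberg adjusted p under 0.05), which is 1.02% and 1.45% of those tested and 2.47% in either direction. Every one of the 218 called probe sets moved in the same direction in both genotypes, and 97 of them changed at least 2-fold (1 on the log2 scale) in each. The agreement in direction follows largely from the test, whose only residual is the difference between the 2 genotype changes. It is therefore not a separate result. The smallest called mean change was 0.86 on the log2 scale and the median size was 1.18. Among all tested probe sets, 67.8% moved in the same direction in both genotypes, and the changes in eif3h and wild type had a Pearson correlation of 0.53 across probe sets (Spearman 0.50), which describes these arrays only, because probe sets are not independent and both arrays of a repeat share a scan day. The correlation was 0.73 among the eighth of probe sets with the brightest signals and lay between 0.37 and 0.59 in the others. The change between repeats had an SD over probe sets of 0.46 in eif3h and 0.50 in wild type, with medians of 0.01 and -0.01. At least 2-fold changes numbered 141 up and 152 down in eif3h and 143 up and 231 down in wild type. The test rests on 1 residual degree of freedom and on a spread borrowed from all probe sets. Without the genotype block limma called 0 probe sets (469 had an unadjusted p under 0.05, against 2050 with it), and 0 were called when all 22746 probe sets were tested (2755 with an unadjusted p under 0.05).

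**Figure D1:**
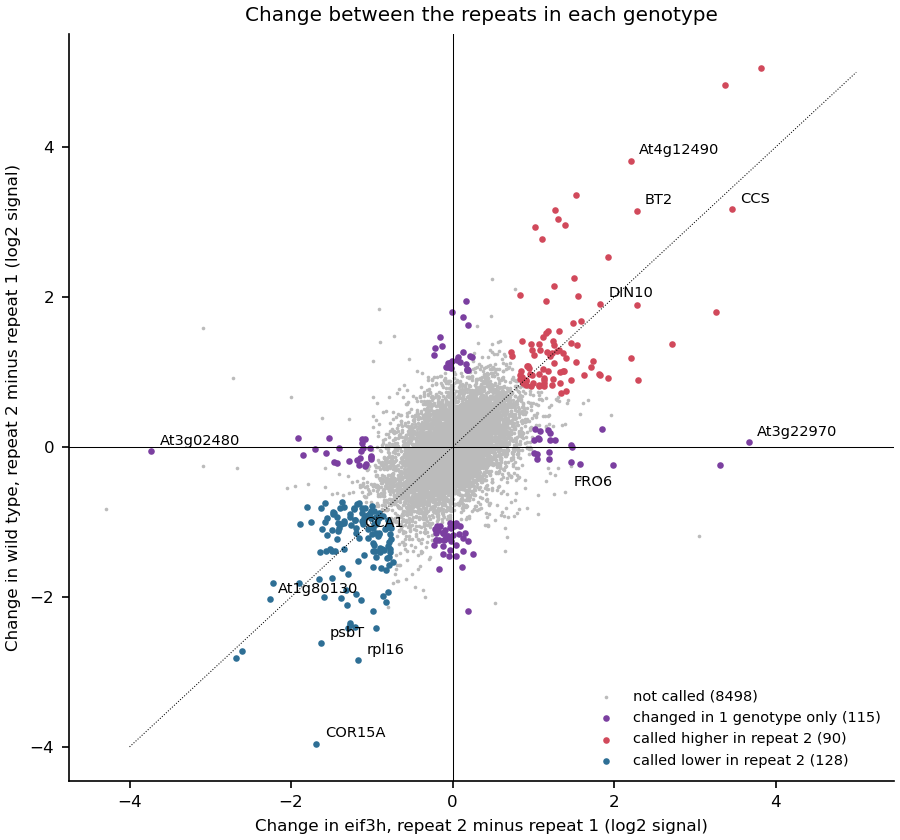
Change from repeat 1 to repeat 2 in eif3h (horizontal) and in wild type (vertical), both in log2 signal, for all tested probe sets. Red and blue points are the 90 and 128 probe sets called higher and lower, purple points the 115 that changed at least 2-fold in 1 genotype and by less than 0.25 in the other. The dotted line marks equal changes, and the called points lie above 0 on both axes or below 0 on both. The calling test largely imposes this agreement.

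Deposited signals were scaled to one trimmed mean per array, and the arrays nevertheless differed in their range. The highest signal was 37509 and 43564 on the repeat 1 arrays of eif3h and wild type and 86884 and 102339 on those of repeat 2, and 0 and 7 against 14 and 31 probe sets lay above 40000. All 18 hybridization spike-in control sets were higher on both repeat 2 arrays, with a median change of 0.85 in eif3h and 0.61 in wild type, as were 25 of 27 Bacillus poly-A control sets. The 3′ to 5′ signal ratio of the GAPDH control fell from 1.92 to 1.33 in eif3h and from 1.98 to 1.25 in wild type, and that of actin from 6.94 to 2.97 and from 3.55 to 2.26, whereas ubiquitin went from 3.34 to 2.89 and from 2.74 to 3.13. A further set of probes for each control did not follow this order. Its ratio went from 0.874 to 0.996 in eif3h and from 0.995 to 0.924 in wild type for GAPDH, from 1.29 to 1.33 and from 1.63 to 1.31 for actin, and from 2.002 to 2.296 and from 2.007 to 2.82 for ubiquitin. The part of these differences in the results below was not tested. TIF3H1 (At1g10840), the gene mutated in eif3h, had signals of 245 and 432 on the eif3h arrays of repeat 1 and 2 and of 1363 and 1021 on the wild-type arrays. It was thus lower on both eif3h arrays, and the place of its probes relative to the insertion was not determined. Its change between the repeats was 0.82 in eif3h and -0.42 in wild type on the log2 scale.

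The largest called rise of a named gene was that of CCS (At1g12520), the copper chaperone that loads copper/zinc superoxide dismutase. It rose from 232 to 2553 in eif3h and from 281 to 2539 in wild type. The arrays of a repeat were nearly equal and the repeats lay about an order of magnitude apart, with a mean log2 change of 3.32 ± 0.18 (SE of the limma fit, 4 arrays, adjusted p = 0.00122). At4g12490, close to AZI1 on the chromosome, rose from 868 to 4002 in eif3h and from 84.3 to 1190.1 in wild type (3.01 ± 0.34, limma adjusted p = 0.0136). AZI1 (At4g12470), a lipid transfer-like protein of systemic immunity, rose from 4654 to 17680 in eif3h and from 388 to 2260.1 in wild type (2.23 ± 0.21, limma adjusted p = 0.00557). Its repeats overlapped, because the eif3h array of repeat 1 was above the wild-type array of repeat 2, but each genotype rose. At5g64120, the peroxidase gene PRX71, went from 1087 to 3148 in eif3h and from 81.0 to 834 in wild type. At2g43620, which has no description in the annotation used, went from 707 to 1861 in eif3h and from 74.8 to 584 in wild type. For both of them, and for At4g12490, the change in wild type exceeded that in eif3h by more than 1.5 on the log2 scale, from a wild-type level in repeat 1 below 100 (the difference has no test). At2g37130, another peroxidase gene, had the opposite order, with changes of 2.21 in eif3h and 1.19 in wild type.

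BT2 (At3g48360), a BTB and TAZ domain scaffold protein that responds to sugar and nitrate, rose from 280 to 1361 in eif3h and from 899 to 7999.9 in wild type, a mean log2 change of 2.72 ± 0.23 (limma adjusted p = 0.00543). DIN10 (At5g20250), a dark-inducible gene of the raffinose synthase family, rose by nearly the same amount in both, from 551 to 1962 in eif3h and from 1399 to 5264 in wild type (1.83 and 1.91 on the log2 scale). HSPRO2 (At2g40000), known from basal resistance and energy signalling, rose from 107 to 324 and from 449.5 to 1446 (changes of 1.59 and 1.69). GSTF3, a glutathione S-transferase, rose from 1311 to 3699 and from 506 to 1588 (1.497 and 1.65). Its probe set may also bind transcripts of close relatives. The leading 12 also held At1g52200, with changes of 1.56 in eif3h and 2.01 in wild type, and At2g05540, a glycine-rich protein gene, with 1.16 and 1.95. In 6 of the 12 largest rises both repeat 2 arrays lay above both repeat 1 arrays, and in the other 6 the repeats overlapped although each genotype rose. Over all tested probe sets 17.7% had both repeat 2 arrays above and 17.9% below both of repeat 1.

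**Figure D2:**
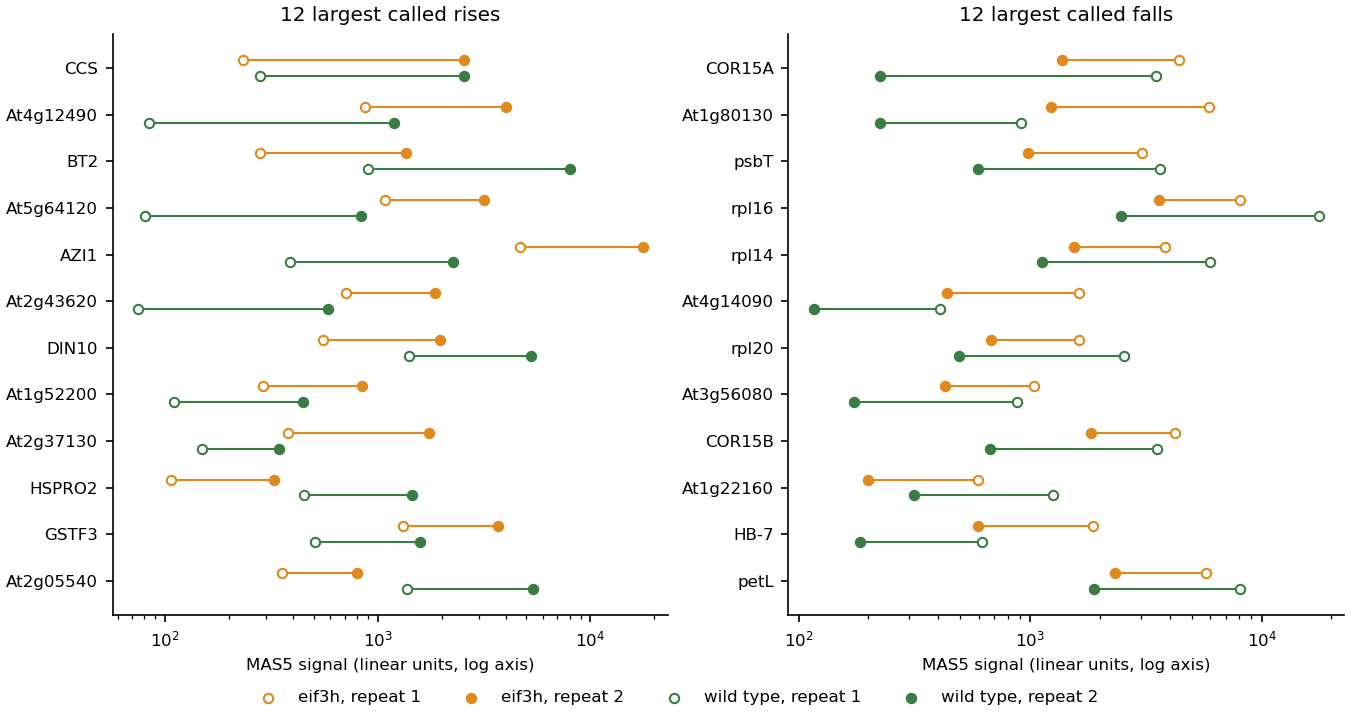
MAS5 signal (log axis) on each of the 4 arrays for the 12 named genes with the largest called rises (left) and falls (right). Open circles are repeat 1, filled circles repeat 2, orange eif3h and green wild type, 1 array each. CCS goes from 232 and 281 to 2553 and 2539, and COR15A from 4412 and 3486 to 1371 and 225.

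All 6 tested genes for cold, abscisic acid and drought fell in both genotypes, and 5 were called. The 5 included COR15A, the largest called fall of a named gene. COR15A (At2g42540), a chloroplast protein that protects membranes in the cold, fell from 4412 to 1371 in eif3h and from 3486 to 225 in wild type. The arrays of repeat 1 were similar and those of repeat 2 were not, with changes of -1.69 and -3.96 (mean -2.82 ± 0.45, limma adjusted p = 0.0276). Its neighbour and paralog COR15B went from 4223 to 1824 and from 3538.5 to 670.5 (-1.21 and -2.40). HB-7 (At2g46680), a homeodomain factor induced by abscisic acid and drought, fell alike, from 1868 to 596 in eif3h and from 622 to 184 in wild type (-1.65 and -1.76, limma adjusted p = 0.0096). Of the 30 genes listed for cold, abscisic acid and drought, 6 were tested. Of these 5 were called lower and 0 higher, beside 1.45% and 1.02% of all tested probe sets. The remaining calls were LTI30, a dehydrin, with changes of -1.49 and -0.89, and ELIP1, an early light-induced protein, with -1.36 and -0.73. COR47, another dehydrin, did not pass (-0.47 and -0.54). The list had a median change of -1.42 in eif3h and -1.32 in wild type, beside 0.01 and -0.01 over all tested probe sets. After quantile normalization 1 of the 5 calls, HB-7, remained. Another member, LEA4-5, a late embryogenesis abundant protein, was below the brightness filter and untested, with 1816 and 113 in eif3h and 77.1 and 10.6 in wild type.

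The called flavonoid genes were enzymes that attach sugars to anthocyanins, and both fell. At4g14090, the gene of an anthocyanin glucosyltransferase, fell from 1629 to 436 in eif3h and from 407 to 116 in wild type, by nearly the same factor (-1.90 and -1.81 on the log2 scale, limma adjusted p = 0.00557). UF3GT, which adds a further sugar to anthocyanins, went from 880.2 to 338.5 and from 490.1 to 239.8 (-1.38 and -1.03, limma adjusted p = 0.026). These were the 2 calls, both lower, among 7 tested of 23 listed flavonoid genes, beside 1.45% of all tested probe sets called lower. Both kept their call under quantile normalization. Of the 7, 5 were lower in both genotypes, 1 was higher in both and 1 moved in opposite directions. Over all tested probe sets 34.1% were lower in both and 33.7% higher in both. DFR, the reductase that commits flavonoids to anthocyanins, had -1.14 and -0.51 (limma adjusted p = 0.0824), and UGT78D1, a flavonol glycosyltransferase, had -0.79 and -0.70. The median of the list was -0.79 in eif3h and -0.52 in wild type. Outside the flavonoid list At1g80130, of unknown function and second to COR15A among the called falls of named genes, went from 5919 to 1234 in eif3h and from 911 to 224 in wild type (-2.26 and -2.03). At3g56080 changed by -1.28 and -2.35, and At1g22160 by -1.59 and -1.997.

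Several of the strongest shifts had no gene name in the annotation used here. The probe set 266165_at rose from 1186 to 16722 in eif3h and from 559 to 18654.5 in wild type, and 264809_at from 1237 to 12807 and from 374 to 10626. Both exceeded CCS, with mean log2 changes of 4.44 and 4.101 (limma adjusted p = 0.0012 and 0.0033). In the other direction 254098_at fell from 9930.2 to 1541 and from 7157 to 1020.3, and 248337_at from 4751 to 779.5 and from 1696 to 257, each by nearly the same amount in both genotypes (-2.69 and -2.81, then -2.61 and -2.72). Of the called probe sets, 51 of 90 higher and 68 of 128 lower had exactly 1 named gene.

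Plastid-encoded transcripts held calls in both directions, mostly lower, and their median was lower in wild type than in eif3h. Of 64 tested probe sets of the plastid genome, 2 were called higher and 10 lower, against 1.02% and 1.45% of all probe sets. Their median change was -0.15 in eif3h and -0.46 in wild type, and the change in eif3h was above that in wild type in 47 of 64, beside 52% of all tested probe sets. The largest fall was that of psbT, a small subunit of photosystem II, from 3037 to 982 in eif3h and from 3633 to 594.5 in wild type (-1.63 and -2.61, limma adjusted p = 0.0149). petL, a small subunit of the cytochrome b6f complex, went from 5757 to 2331 and from 8060 to 1878.5 (-1.30 and -2.10). Repeat 1 lay above repeat 2 without overlap in both.

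The ribosomal protein genes rpl16 and rpl14 are neighbours in 1 transcription unit, so their probe sets may read the same transcripts. rpl16 fell from 8094.5 to 3593 in eif3h and from 17610.0 to 2461.5 in wild type, and rpl14 from 3822 to 1552 and from 6009 to 1123. rpl20, elsewhere on the plastid genome, changed by -1.27 and -2.37. These were 3 of 14 tested plastid ribosomal protein probe sets, whose medians were -0.46 in eif3h and -0.50 in wild type. Of 9 for the NDH complex, which carries electrons around photosystem I, ndhE (-0.95 and -2.41) and ndhJ (-0.99 and -2.18) were called lower. psaC, an iron-sulfur subunit of photosystem I next to ndhE, was also called lower (-0.83 and -1.64), as were psbZ (-0.88 and -1.36) and ycf3, a photosystem I assembly factor (-0.82 and -2.06). The 3 tested subunits of the plastid RNA polymerase had changes from -0.52 to -0.59 in eif3h and from -0.57 to -1.22 in wild type, with 0 called. The 2 plastid calls in the other direction were psbM, another small photosystem II subunit (15784 to 36497 in eif3h and 27404 to 63565 in wild type), and atpB, the beta subunit of ATP synthase (34832 to 65055 and 40023 to 73731). Their signals were among the brightest of each array. After quantile normalization 3 of the 10 lower calls and 0 of the 2 higher calls remained. The 25S ribosomal RNA control was 133 and 129 in eif3h and 270.5 and 1620.8 in wild type, in the order of the repeats, so it rose on the wild-type array of repeat 2 alone. Its part in the larger wild-type changes was not tested. Of 2 tested mitochondrial probe sets, nad4, a subunit of respiratory complex I, was called lower (-0.86 and -1.99) but lost its call after quantile normalization (limma adjusted p = 0.0908), and cox1 had -0.41 and -0.73.

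**Figure D3:**
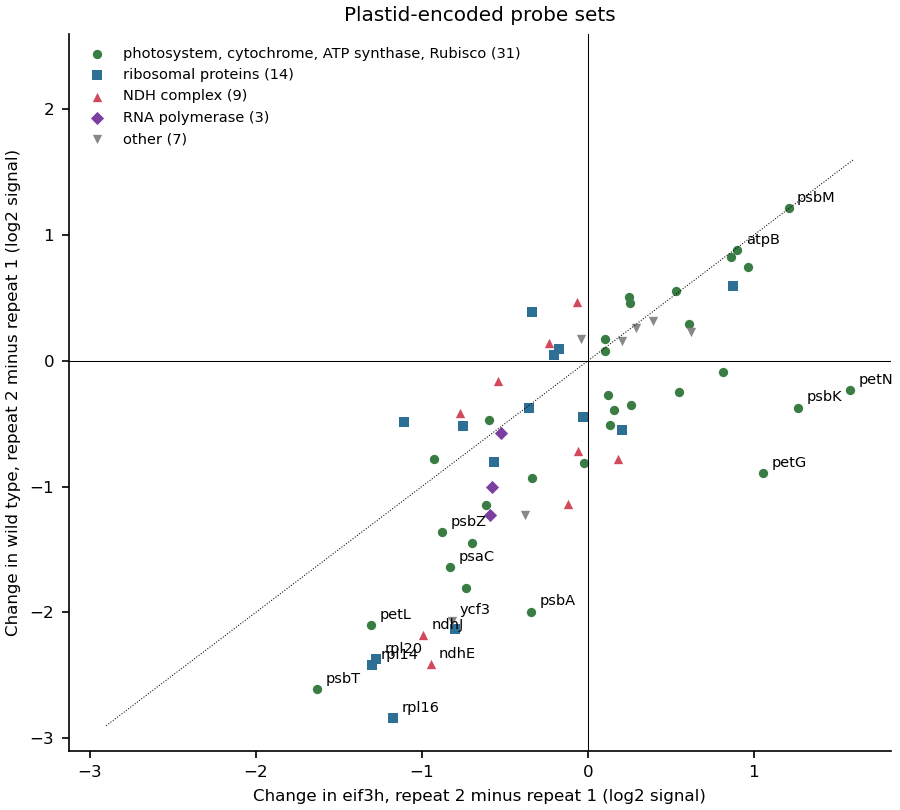
Change from repeat 1 to repeat 2 in eif3h (horizontal) and wild type (vertical), in log2 signal, of 64 plastid-encoded probe sets by function. The dotted line marks equal changes. 47 points lie below it, and called probe sets, with petN, petG, psbK and psbA, carry names.

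Among clock genes the morning factor CCA1 fell. CCA1 (At2g46830) went from 1213 to 528 in eif3h and from 2896 to 1305 in wild type, nearly the same change in both genotypes (-1.20 and -1.15, limma adjusted p = 0.023). LHY, its partner, had -0.10 and -0.30 and was not called. At3g12320, the clock-regulated gene LNK3, was the other call, from 946 to 508 and from 2741 to 1034 (-0.90 and -1.41). Its relative At3g54500, LNK2, had -0.57 and -1.76 (limma adjusted p = 0.0736), and COL2, a CONSTANS relative, had -0.71 and -0.74 (limma adjusted p = 0.0736). TOC1, an evening gene, had 0.20 and 0.94 and was not called. Of 38 listed clock genes 12 were tested, 2 were called lower and 0 higher, beside 1.45% and 1.02% of all tested probe sets. Of the 12, 7 were lower in both genotypes, beside 34.1% of all tested. Both calls were lost after quantile normalization (limma adjusted p = 0.0512 for CCA1). Of these 12, 10 were named through the study's own gene lists, so they are not a neutral sample of the clock.

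The calls among metal, phosphate and sugar genes were all higher in repeat 2. They were 2 of 4 tested metal genes, 1 of 1 phosphate and 1 of 8 sugar genes. Of all tested probe sets 1.02% were called higher and 1.45% lower. Beside CCS, MT1C, a metallothionein that binds copper, rose from 6732 to 12691 in eif3h and from 3859 to 7172 in wild type (0.91 and 0.89, limma adjusted p = 0.0435). Of the other 2 tested metal genes, PYE, a regulator of the iron deficiency response, had -0.42 and 0.32, and FRO6, a ferric reductase, had 1.399 and -0.60. The FRO6 probe set may also bind transcripts of close relatives. Beside 33.7% of all tested probe sets, all 3 tested nitrate genes were higher in both genotypes, with 0 calls. Among them were At1g25550, a transcriptional repressor gene with changes of 0.85 and 0.85 (limma adjusted p = 0.0519), LBD39, a repressor of nitrogen response genes with 0.62 and 1.01, and RFNR1, a root-type ferredoxin reductase with 0.28 and 0.50. PAP17, an acid phosphatase and the only tested phosphate gene, rose from 1864 to 4074 and from 915 to 1604 (1.13 and 0.81, limma adjusted p = 0.0424). MT1C and PAP17 both lost their call after quantile normalization (limma adjusted p = 0.0733 and 0.0646). Of 8 tested sugar starvation and dark genes DIN10 alone was called. SEN1, a dark-inducible senescence gene, had 0.84 and 0.64 (limma adjusted p = 0.0736), whereas MCCA, of leucine breakdown, had 0.50 and 0.03 and bZIP1, an energy-response factor, had 0.42 and -0.02. The medians of this list were 0.46 in eif3h and 0.02 in wild type. PAP17, 5 of the 8 sugar genes (DIN10 among them), 2 of the 3 nitrate genes and 1 of the 4 metal genes were named through the study's own gene lists. These lists are therefore not neutral samples.

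**Figure D4:**
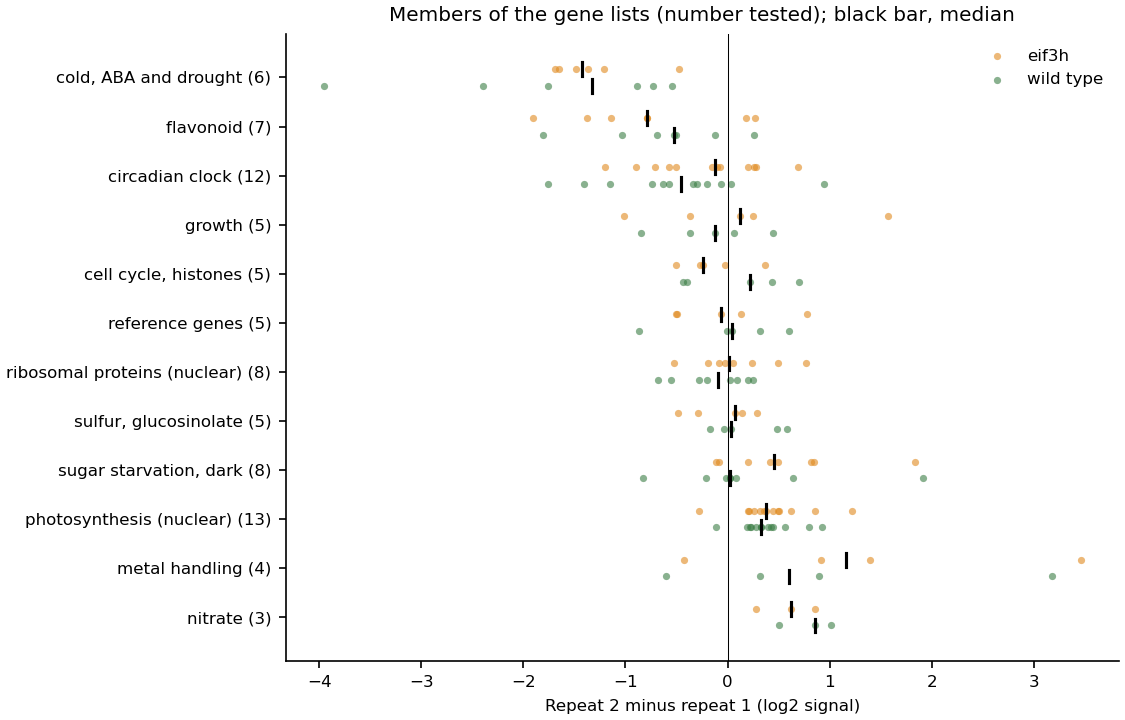
Change from repeat 1 to repeat 2, in log2 signal, of the tested members of 12 gene lists, with eif3h in orange, wild type in green and the median as a black bar. Cold, abscisic acid (ABA) and drought genes lie lowest, with medians of -1.42 and -1.32, and nitrate and metal genes highest, with medians from 0.61 to 1.16.

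Nuclear photosynthesis genes were mostly higher in repeat 2 as deposited, but this direction was lost with another scaling. Of 13 tested, 12 were higher in both genotypes, beside 33.7% of all tested probe sets, with medians of 0.37 in eif3h and 0.33 in wild type. Of the 13, 1 was called higher, beside 1.02% of all tested probe sets. RCA, the Rubisco activase, was the only call, from 28004.5 to 50782 in eif3h and from 30586 to 58204 in wild type (0.86 and 0.93, limma adjusted p = 0.0452). LHCB4.3, a light-harvesting antenna protein, had 1.22 and 0.56, and GAPB, a Calvin cycle dehydrogenase, had 0.62 and 0.80. After quantile normalization the median over the list was -0.06, against 0.39 as deposited, and RCA lost its call (limma adjusted p = 0.32). LHCB4.2 was lower in both as deposited (-0.28 and -0.11). LHCB4.3, a dimmer member with signals from 787 to 1832, had 0.95 after quantile normalization and 0.89 as deposited. The difference in the highest signals given above runs in the direction of the deposited median.

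No member was called in the lists for heat shock (1 tested), touch and jasmonate (2), salicylate defence (1), sulfur and glucosinolates (5), cell cycle and histones (5), growth (5), ER folding (1), nuclear ribosomal proteins (8) or reference genes (5). Fes1A, a heat shock co-chaperone, had -0.35 and 0.40. The touch genes EXO and TCH4 had 0.41 and 0.14, and 0.22 and 0.01. PR4, a defence chitinase, went from 1812 to 5788 in eif3h and from 525 to 809 in wild type (limma adjusted p = 0.0644). Glucosinolate synthesis genes did not pass, with -0.48 and -0.17 for MAM1 and -0.29 and -0.04 for BCAT4, as did the sulfur genes APR2 (0.29 and 0.58) and SULTR4;2 (0.14 and 0.49). Among histone H2B genes HTB4 had -0.51 and -0.43, HTB1 had -0.24 and -0.40 and HTB2 had -0.02 and 0.22, and PRL, a replication licensing factor, had 0.37 and 0.70. Wall-loosening expansins differed between genotypes, with 1.57 and 0.44 for EXPA1, -1.02 and -0.13 for EXPA4 and 0.25 and -0.85 for EXPA8 (the differences have no test), and the auxin-conjugating WES1 had -0.37 in both. BZIP60, of the ER folding response, had -0.48 and -0.29. Of the ribosomal proteins RPS18C had -0.08 and -0.55, and the plastid-type RPL27 and RPL9 had 0.77 and 0.02, and 0.49 and 0.20. All 8 tested were named through the study's own gene lists, so they are not a neutral sample of nuclear ribosomal proteins.

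None of the genes often used as references for seedling RNA passed the test, but their values were spread. GAPC2 went from 21027 to 36156 in eif3h and from 21518 to 32731 in wild type (0.78 and 0.61), and PEX4, a ubiquitin-conjugating enzyme gene, from 1229.8 to 863.9 and from 1153.8 to 631.2 (-0.51 and -0.87), both short of the threshold (limma adjusted p = 0.0826 and 0.0895). At2g28390 had -0.49 and 0.04 and At4g34270 had -0.07 and 0.32. The median over the 5 tested was -0.07 in eif3h and 0.04 in wild type.

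In contrast to the shared shifts, 46 probe sets changed at least 2-fold in eif3h and by less than 0.25 on the log2 scale in wild type, 22 upward and 24 downward. In wild type alone 69 did so, 26 upward and 43 downward. Each such change sets 1 array against 1, so none has a test, and 0 of these probe sets was called in the joint fit. The largest was that of At3g02480, which has no description in the annotation used, with 7164.5 in eif3h repeat 1, 539 in eif3h repeat 2, 159 in wild type repeat 1 and 153 in wild type repeat 2. The eif3h array of repeat 1 stood apart from the other 3. At3g22970 was the reverse, with 87.3 in eif3h repeat 1 against 1112, 1405 and 1472 on the others. Among the probe sets that rose in eif3h only, the eif3h array of repeat 1 was the one farthest from the mean of the rest in 19 of 22, and among those that fell in 13 of 24. In all others it was the eif3h array of repeat 2, since the choice of these probe sets places an eif3h array farthest. Among those changed in wild type only, the wild-type array of repeat 1 was farthest in 15 of 26 that rose and 28 of 43 that fell. At3g15670, the only seed marker of 13 with a name here, was below the brightness filter. As for At3g02480, its eif3h array of repeat 1 stood apart, with 5377 and 287 in eif3h and 8.7 and 12.4 in wild type.

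Of the 22 probe sets that rose in eif3h only, 11 had 1 named gene, and the next largest rises among these were those of At1g23390 (669 to 1856, wild type 5595 to 4864.5), At5g61590, the ethylene response factor DEWAX, a repressor of wax synthesis (213 to 590.5, wild type 1569 to 1597.5), At2g30600 (239 to 576.5, wild type 520.5 to 553), and the plastid gene petN, of the cytochrome b6f complex (229 to 684, wild type 688 to 586). In At1g23390, At5g61590, At2g30600 and petN the eif3h array of repeat 2 was nearer to the wild type than that of repeat 1 was. The falls in eif3h only included At1g16560 (791 to 243), At1g76810 (719 to 317), At1g78070 (489 to 218) and the polyubiquitin gene UBQ3 (1088 to 492.5), with changes between -1.14 and -1.70 in eif3h and from -0.02 to -0.24 in wild type.

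Among named genes the largest rises in wild type only were those of At5g38020 (173 to 573, eif3h 509 to 557), SIP2, a raffinose-cleaving galactosidase (612 to 1884.5, eif3h 1019.5 to 1160.4), THIC, of thiamin synthesis (3917 to 9002, eif3h 7319 to 8661), the stromal ascorbate peroxidase SAPX (300.0 to 671, eif3h 1546 to 1613) and At1g12810 (337 to 732, eif3h 491 to 481). The largest falls were those of At1g19960 (824 to 299.7), DFL2, an amino acid conjugating enzyme of the GH3 family (470.3 to 172), At5g16030 (5231.5 to 2019), At5g44680 (2244 to 939.9), and TUB1, a beta-tubulin (334 to 142), with changes from -1.24 to -1.46 in wild type and from -0.17 to 0.04 in eif3h. For At5g38020, THIC, At5g16030 and At5g44680 the wild-type array of repeat 1 was the one that differed, and the other 3 lay close together. Probe sets with changes of at least 2-fold in opposite directions numbered 2, and neither had a gene name. 253767_at went from 4719 to 553 in eif3h and from 70.9 to 213 in wild type, and 265342_at from 46.5 to 385 and from 2689 to 1179.

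**Figure D5:**
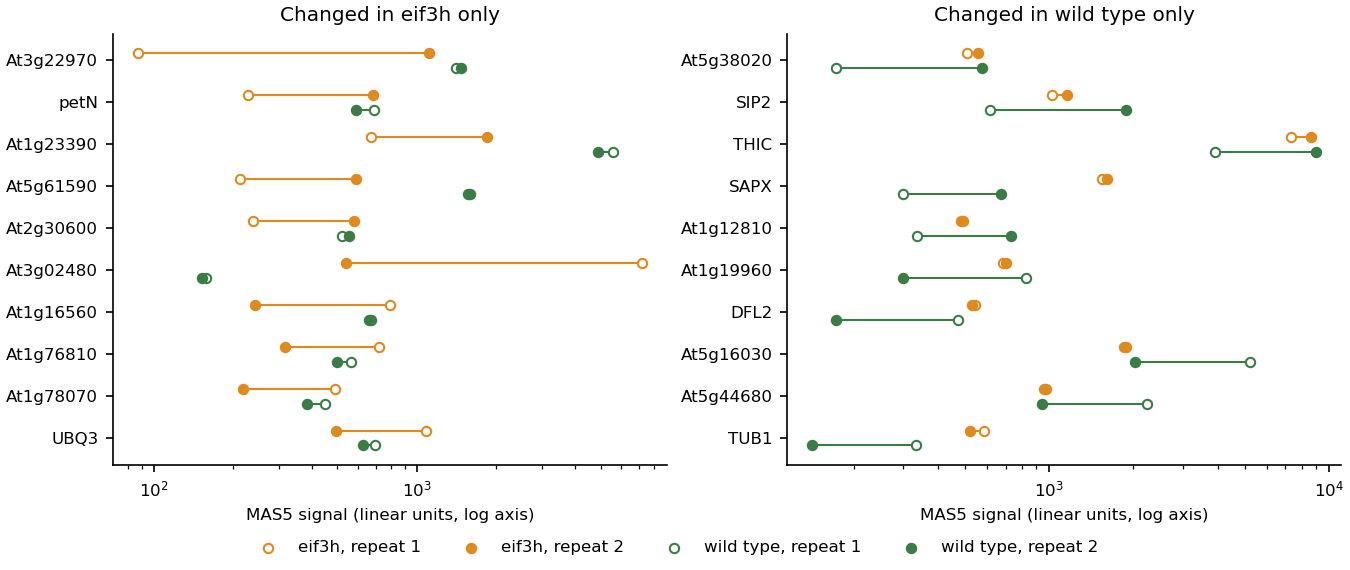
MAS5 signal (log axis) on each of the 4 arrays for the 10 named genes with the largest changes in eif3h only (left) and in wild type only (right). Open circles are repeat 1, filled circles repeat 2, orange eif3h and green wild type, 1 array each. At3g02480 stands at 7164.5 in eif3h repeat 1 and between 153 and 539 on the other arrays.

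Markers of root and shoot tissue gave little to compare. The seed marker At3g15670, given above, was far higher on the eif3h array of repeat 1 than on the others and was not tested. The root hair expansins EXPA7 and EXPA18, the 2 named of 16 root markers, were dim on all arrays, from 61.8 to 216.8, with EXPA18 higher in repeat 2 in both genotypes (95 to 216.8 and 89.1 to 186.6). The bright nuclear photosynthesis genes show green tissue on all 4 arrays. Of the shoot markers, ATML1, an epidermal homeodomain factor, had -0.39 and -0.03, and 5 others were under the brightness filter.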

How the data were processed

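Total RNA was hybridised to Affymetrix ATH1 arrays. The deposited intensity of a probe set is its MAS5 signal (not a log value), and the authors' processing included background correction and a scaling that left every array at one trimmed mean (500.05). Groups came from the sample titles. The signals were taken to log2 without an offset, 64 control probe sets were left out, and the brightest 38.8% of probe sets (geometric mean of at least 327.39) were fitted with genotype and repeat in limma 3.58.1 (R 4.3.3). The change in each genotype is log2 of repeat 2 over repeat 1, 1 array against 1. The interaction would take the last residual degree of freedom, so it has no test. The script was tested on simulated data, with 200 of 8831 probe sets changed in each of 20 draws. Of changes of 1 on the log2 scale a median of 79% was recovered (31 to 95% over the draws). Of changes of 2 it was 100% (97 to 100%). False calls made up a median of 8.97% of the calls (2.22 to 26.7%). An adjusted p under 0.05 thus did not hold the false share to that level in the median draw.

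Genes were named from the platform annotation (13513 of 22746 probe sets with 1 symbol, matched to RefSeq) and otherwise from probe set and locus pairs in the study's supplementary lists (364), used as identifiers only. Plastid and mitochondrial genes were taken by RefSeq chromosome in place of locus prefix, because plastid locus tags differ there. Members and gene lists were chosen with earlier results of these data known. Named are TIF3H1, the 12 largest called rises and falls with 1 gene that move alike, the 5 largest changes in each direction in 1 genotype only, up to 4 members per list, and called list members. Alternatives were no genotype block, quantile normalization, median centring, all or the 5000 brightest probe sets, a prior spread that follows intensity, an offset of 50, no cross-hybridizing probe sets, each array left out, and lists named by the platform annotation alone (chosen after seeing the data). The array settings files served only to compare scan days and scanners. With 4 arrays their number limits the precision. Promoter sequences were not used here. The values of 1 member of a gene list are not reported here.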

Additional observations from a re-analysis of the deposited data

Results flagged for a closer look

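The following named genes had changes of opposite sign in the 2 genotypes that differed by at least 1 on the log2 scale. Each change sets 1 array against 1, and none of these differences was tested. The change in eif3h exceeded that in wild type by 1.998 for FRO6, whose probe set may bind related transcripts, by 1.81 for petN and by 1.67 for At1g23390. It did so by 1.5 for At1g19960, by 1.23 for TIF3H1 and by 1.09 for EXPA8. For At1g12810 the change in eif3h minus that in wild type was -1.15.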

How the results depend on the processing

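No paired analysis was possible because the replicate number is the factor compared and cannot also be a block; the genotype was the block instead. The counts of 90 higher and 128 lower calls were 0 and 0 without the genotype block and with all probe sets (lowest limma adjusted p 0.232 and 0.398), 32 and 33 after quantile normalization, 31 and 22 after median centring and 271 and 321 with an intensity trend. They stayed within 1.5 times with the 5000 brightest probe sets, an offset of 50 and no cross-hybridizing probe sets. Leaving out 1 array, without the block, gave 0 to 5 higher and 0 to 5 lower calls. All of the 24 leading genes tested kept their direction under every alternative, and 15 and 14 kept their call after quantile normalization and median centring. Over all probe sets the 2-fold changes in both genotypes numbered 1324 up and 434 down, the opposite ones 735, those in eif3h only 362 and 233, those in wild type only 504 and 312, and the correlation was 0.24. Among the 5000 brightest they were 29 and 24, 0, 12 and 9, and 14 and 22. Quantile normalization turned LHCB4.1 to -0.057 (0.45 as deposited) and with it the photosynthesis median to -0.057. Leaving out 1 array without the block turned the sign of these mean changes, whose ranges over the 4 arrays were -1.04 to 1.44 for TIF3H1, -1.71 to 0.26 for COL2, -0.37 to 0.43 for Fes1A, -0.085 to 0.64 for EXO, -0.077 to 0.30 for TCH4, -0.27 to 2.57 for PR4, -0.50 to 0.90 for bZIP1, -0.24 to 1.01 for RFNR1, -0.15 to 1.02 for APR2, -1.47 to 0.81 for MAM1, -0.28 to 0.91 for SULTR4;2, -0.35 to 0.022 for BCAT4, -1.15 to 1.95 for FRO6, -0.52 to 0.41 for PYE, -0.68 to 0.046 for HTB1, -0.24 to 0.44 for HTB2, -0.085 to 2.1002 for EXPA1, -1.14 to 0.54 for EXPA8, -0.85 to 0.42 for ATML1, -0.52 to 0.063 for At2g28390, -0.21 to 0.46 for At4g34270, -0.78 to 1.57 for RPL27, -0.50 to 1.19 for RPL9 and -2.17 to 0.077 for ELIP1, and of the medians of the lists for clock (-0.72 to 0.035), growth (-0.47 to 0.29), sugar starvation (-0.19 to 0.87), plastid photosynthesis (-0.35 to 0.25), reference genes (-0.21 to 0.063), cell cycle (-0.12 to 0.24) and sulfur (-0.15 to 0.023). Those fits compare genotypes as well as repeats by construction. Of these genes ELIP1 alone was called. Causes were not tested otherwise. With 1 residual degree of freedom the calls rest mostly on the borrowed spread, and dim probe sets on signals near the background of the arrays.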

Other observations

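Several listed response genes lay under the brightness filter and have no test. The first 3 named here moved in the same direction in both genotypes and the last 3 in opposite directions. STZ, a zinc finger repressor induced by stress, went from 98.3 to 292 in eif3h and from 89.6 to 614 in wild type, and WRKY53, a factor of early defence and senescence, from 51.3 to 166 and from 23.4 to 107. The defensin gene PDF1.2, a jasmonate and ethylene marker, went from 40.4 to 513 in eif3h and from 50.7 to 138 in wild type, whereas the probe set of its relative PDF1.2b, of a type that can bind related transcripts, went from 89.2 to 739.6 and from 166.9 to 153.1. The iron regulator BHLH101 went from 43.0 to 238 in eif3h and from 538 to 447 in wild type, and the auxin response gene IAA29 from 70.5 to 142 and from 236 to 66.3. Values this low carry more array noise than those of the tested genes.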
